A study of Mus musculus with 6 samples.

Results

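The collagen genes of the proximal mouse incisor were examined in libraries with and without Fgfr1 in Gli1+ cells. Members were the columns of the deposited gene table whose symbols have the form of a collagen chain, Col followed by a type number, the letter a and a chain number, which found 44 of 19060 genes. They were divided into 11 fibrillar chains, 9 chains of basement membranes and 24 other chains, the last made up of 9 FACIT chains (fibril-associated collagens with interrupted triple helices), 6 beaded filament chains, 3 network chains, 4 transmembrane chains and 2 that belong to none of these. The study sequenced bulk RNA of the proximal end of the incisor from 3 control libraries (genotype Fgfr1fl/fl) and 3 mutant libraries (genotype Gli1-Cre;Fgfr1fl/fl), the Cre being the tamoxifen-inducible CreER form. Every mouse carried the floxed Fgfr1 allele, received tamoxifen at 1 month of age and was sampled 1 week later. The Cre acts in Gli1+ cells and their progeny, whereas the dissected end of the tooth also holds epithelium, vessels, nerve and immune cells, so that each value is a sum over all of these. The labels do not say how many animals went into a library, and p-values therefore measure the spread between libraries.

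Collagens are trimeric proteins of the extracellular matrix, and each chain carries stretches in which glycine is followed by any 2 residues, over and over, so that the chains can wind around each other. Fibrillar collagens form the cables that give dentin, bone and soft connective tissue their tensile strength, and type I, built from Col1a1 and Col1a2 chains, is the main organic component of dentin and bone. Type IV chains form the sheet that underlies epithelia and surrounds vessels. FACIT chains sit on the surface of fibrils, and type VI chains form fine beaded filaments around cells. In the incisor, odontoblasts and pulp cells secrete most of the collagen, and enamel, made by ameloblasts, holds almost none.

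The glycine repeat can be read from the coding sequence, where every glycine codon is GGN, and its length sets the fibrillar chains apart from the other 2 classes independently of any expression value. The longest unbroken run of GGN triplets in the GENCODE coding sequence (release M21, build GRCm38) spanned a median of 338 triplets in the 11 fibrillar chains, 42 in the 9 basement membrane chains and 48.5 in the 24 other chains. Exons of exactly 54 bases made up a median of 47.7% of the internal coding exons of fibrillar genes, 4.4% of those of basement membrane genes and 8.7% of those of the other genes. The longest runs spanned 216 to 344 triplets in fibrillar chains, and the ranges of the basement membrane (30 to 75) and other chains (23 to 113) overlapped. An exon from a member of each main kind of chain is printed here to show the repeat, 5′ to 3′ on the coding strand, with the GGN codons of an unbroken run in capitals.
Col1a2, fibrillar, chr6:4515481-4515534, plus strand: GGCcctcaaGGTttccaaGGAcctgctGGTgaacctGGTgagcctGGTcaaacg
Col3a1, fibrillar, chr1:45325360-45325413, plus strand: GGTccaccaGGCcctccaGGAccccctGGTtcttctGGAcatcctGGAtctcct
Col4a1, basement membrane, chr8:11267597-11267656, minus strand: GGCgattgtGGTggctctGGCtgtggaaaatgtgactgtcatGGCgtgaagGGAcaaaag
Col9a2, FACIT, chr4:121043696-121043749, plus strand: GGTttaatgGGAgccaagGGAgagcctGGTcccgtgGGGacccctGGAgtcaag
Col6a1, beaded filament, chr10:76719623-76719676, minus strand: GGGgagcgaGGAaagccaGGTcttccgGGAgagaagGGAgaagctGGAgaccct
In the exon of Col4a1 the 5 marked GGN codons fall in 2 runs with other codons between them, and the exon was picked for holding such a gap. Whether that gap lies inside the triple helix was not examined, and how far the 2 runs reach beyond this exon is not shown. The other 4 exons are unbroken over 6 GGN codons.

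The control libraries held 31060222 to 32712448 counts and the mutant libraries 5276557 to 11819576, so that values in the mutants rest on fewer reads. Values are given as CPM, the count of a gene relative to the upper-quartile-scaled total of its library, and a gene was called where the unadjusted p was under 0.05 and the change was over 1.5-fold, the threshold the study used. Fgfr1, the deleted gene, stood at 529, 924 and 434 CPM in the controls and at 148, 318 and 262 CPM in the mutants, a log2 change of -1.37 ± 0.40 (SE, adjusted p = 0.0881), and it was called lower. Control 2 stood apart for collagen. It was the highest of the 3 controls for 32 of the 39 collagen genes tested and for 33.8% of all genes tested, and its collagen values were a median of 1.91 times the mean of controls 1 and 3, against 0.940 over all genes. The summed level of the 5 skeletal muscle markers was 2486 CPM in control 2 and 7.22 and 23.3 CPM in the other controls, and it was 5372, 126 and 884 CPM in the mutants. The 7 markers of dental epithelium and ameloblasts summed to 85172 to 120703 CPM in the controls and 31441 to 69581 CPM in the mutants. The groups did not overlap, and most of each sum was Amelx and Ambn. Amelx, Ambn, Krt14 and Krt5 were lower in every mutant than in any control. Enam, Cdh1 and Epcam overlapped, with log2 changes of -1.08 ± 0.56, -0.25 ± 0.36 and 0.58 ± 0.27 (SE). The 4 odontoblast markers (Dspp, Dmp1, Nes and Phex) summed to 2877, 8677 and 1997 CPM in the controls, highest in control 2. They summed to 2722, 4214 and 3999 CPM in the mutants. The 5 osteoblast markers summed to 9756, 7768 and 6332 CPM in the controls and 7920, 10106 and 8068 CPM in the mutants, with overlap. None of the 4 odontoblast or 5 osteoblast markers was at 0 in every mutant library. The part that such differences between libraries have in the collagen values was not tested.

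Every collagen gene that was called was lower in the mutants, but none of these calls held once the length and GC content of transcripts were taken into account. Of the 39 members with enough counts to test, 9 were called lower in edgeR's quasi-likelihood test, against a background of 8.92% of all 15826 genes tested, and 0 were called higher, against a background of 10.9%. The 9 were Col1a2 and Col5a1 among the fibrillar chains, Col4a1 and Col4a2 among those of basement membranes, and Col6a1, Col6a2, Col8a2, Col9a2 and Col9a3 among the rest. The log2 change was below 0 for 37 of the 39 tested members and for 51.8% of all genes tested, and its median was -0.92 in the members and -0.04 in all genes. The median was -0.77 over 11 fibrillar chains with 2 called lower, -1.10 over 7 tested basement membrane chains with 2 called lower, and -0.86 over 21 tested other chains with 5 called lower. Without control 2, 7 members were called lower (background 5.61%) and 30 of 39 had a log2 change below 0. All 3 mutants were below all 3 controls in 12 of the 39 tested members, against 16.3% of all genes. In bulk tissue a smaller number of collagen-producing cells and less collagen RNA in each cell cannot be told apart.

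No member had an adjusted p under 0.05 in edgeR, against 6.79% of all genes. The lowest adjusted p was 0.0778, for Col6a1, whereas 9 members had an unadjusted p under 0.05 and DESeq2 gave 7 members an adjusted p under 0.05 (background 10.2%). After this length and GC correction, which takes out how the counts of each library depend on the length and GC content of transcripts, whatever the source of that dependence, 0 members were called lower (background 7.30%) and 1, Col27a1, was called higher (background 7.03%), and the median was -0.26 in the members and stood at -0.03 in all genes. Collagen transcripts are long, with a median of 5989 bases against 2940 for all genes tested, and their median GC content is 55.4% against 50.2%.

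**Figure D1:**
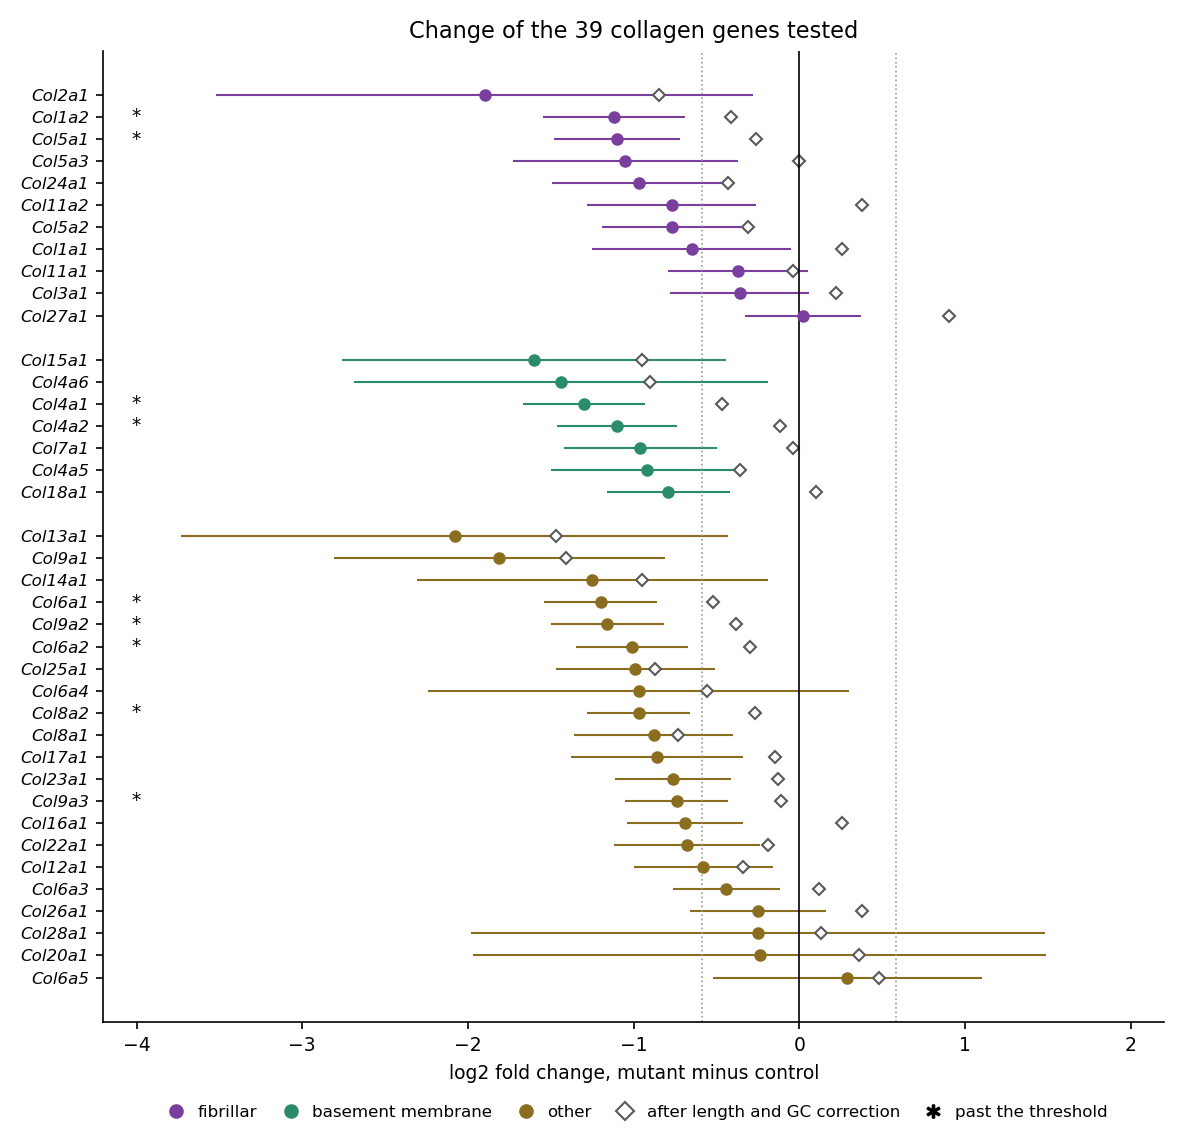
Log2 fold change of each of the 39 collagen genes tested, mutant minus control, grouped by class, with bars of 1 SE from edgeR, dotted lines at a 1.5-fold change and an asterisk for the 9 genes called lower. Open diamonds give the change after the length and GC correction, where 28 of the 39 lie below 0 and the class medians are -0.04, -0.36 and -0.27 for fibrillar, basement membrane and other chains.

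Type I collagen was by far the most abundant, and its 2 chains did not move alike. Col1a1 had the highest level per length of all 44 members in the controls, 5287 CPM per kilobase of transcript, followed by Col1a2 at 1096 and Col3a1 at 374. Col1a1 was at 18511, 50909 and 24634 CPM in the controls and at 21228, 16455 and 22215 CPM in the mutants. The groups overlapped, with control 1 below mutants 1 and 3, and the log2 change of -0.65 ± 0.60 (SE) was not called (adjusted p = 0.636). Col1a2 was at 3921, 9057 and 4602 CPM in the controls and at 2731, 2455 and 2878 CPM in the mutants. Here every mutant was below every control, and the gene was lower by 2.18-fold, a log2 change of -1.12 ± 0.43 (SE, adjusted p = 0.190). The Col1a1 change turned to 0.26 after the length and GC correction, and that of Col1a2 moved to -0.41, which was not called. The Col1a2 call also needed every mutant library, since leaving out any of the 3 in turn ended it.

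**Figure D2:**
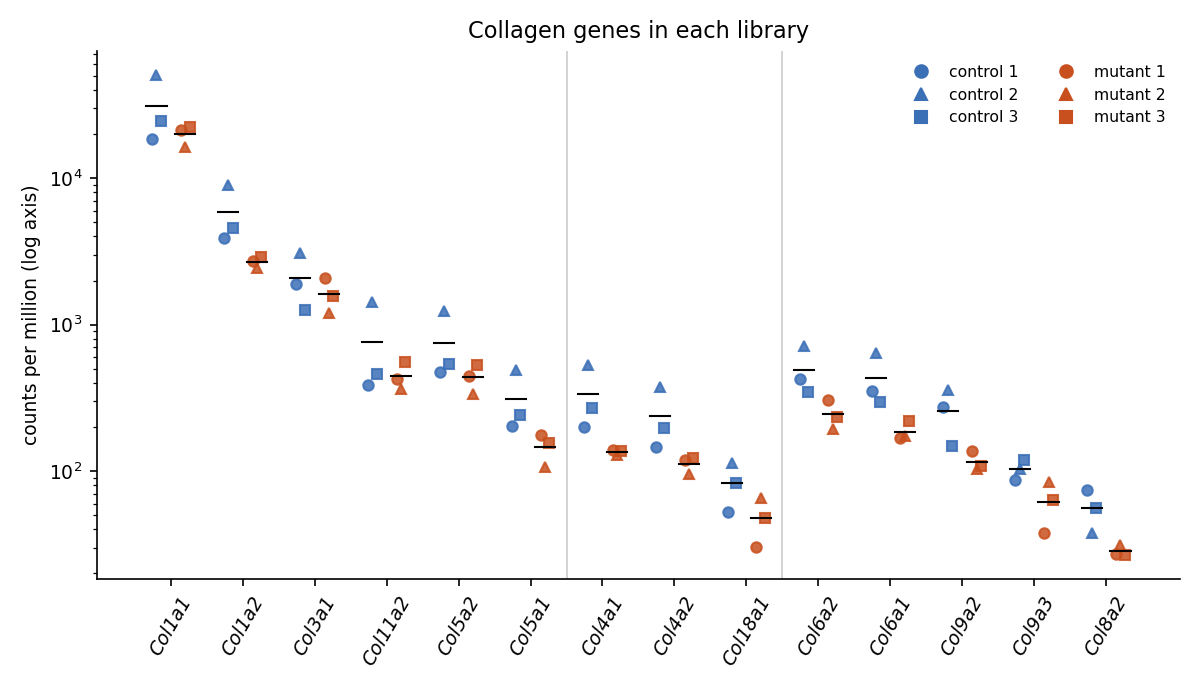
Scaled counts (CPM) on a log axis for 14 collagen genes in each library, with controls in blue on the left of each gene, mutants in orange on the right and horizontal lines at the group means. Vertical lines separate fibrillar, basement membrane and other chains, and control 2 (blue triangle) is the highest library for every one of these genes except Col9a3 and Col8a2.

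The minor fibrillar chains of types V and XI, which are built into type I and type II fibrils and set their diameter, gave a mixed picture. Col5a1 was at 203, 490 and 242 CPM in the controls and 176, 106 and 155 CPM in the mutants. It was lower in every mutant than in any control, by 2.14-fold (log2 change -1.10 ± 0.38 SE, adjusted p = 0.149), and without control 2 the log2 change was -0.61 and the call ended, as it did without mutant 2 or without mutant 3. Its partner Col5a2 was at 474, 1243 and 535 CPM in the controls and 449, 337 and 532 CPM in the mutants, and Col5a3 was at 12.6, 36.9 and 9.28 CPM against 10.5, 13.4 and 4.43 CPM. Mutant 3 lay above control 1 for Col5a2, and mutants 1 and 2 above control 3 for Col5a3, so that the groups overlapped in both and neither was called (log2 changes -0.77 ± 0.42 and -1.05 ± 0.68 SE). Without control 2 these changes were -0.20 and -0.21, while Col5a2 was called lower with total counts, in DESeq2 and without control 1. Col11a1 was at 199, 576 and 243 CPM in the controls and at 238, 213 and 335 CPM in the mutants. Col11a2 was at 386, 1436 and 463 CPM in the controls and at 424, 362 and 555 CPM in the mutants. In both type XI chains the mutants lay within the range of the controls or, for Col11a2 in mutant 2, below it, and without control 2 the log2 changes of -0.37 and -0.77 turned to 0.24 and 0.07.

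Col3a1, the chain of type III collagen, which forms fine reticular fibrils in soft tissues such as skin and vessels, was at 1903, 3095 and 1254 CPM in the controls and at 2093, 1197 and 1572 CPM in the mutants. The groups overlapped throughout and the log2 change of -0.36 ± 0.42 (SE) was not called, turning to 0.04 without control 2 and to 0.22 after the length and GC correction. The remaining fibrillar chains were of low level and none was called. Col2a1, the cartilage collagen, ranged from 1.22 to 44.9 CPM in the controls and from 0 to 12.0 CPM in the mutants, with control 2 holding the highest value, and its log2 change of -1.90 ± 1.62 (SE) turned to 0.59 without that library. Col24a1 ranged from 12.9 to 34.1 CPM in the controls and from 6.49 to 15.1 CPM in the mutants. Col27a1, at 51.6, 137 and 80.1 CPM in the controls and 80.8, 94.4 and 97.3 CPM in the mutants, was the only fibrillar gene with a log2 change that was not below 0 (0.02 ± 0.35 SE). Its change was -0.07 under TMM scaling, -0.27 with total counts, -0.02 in DESeq2, 0.46 without control 2 and 0.90, called higher, after the length and GC correction.

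Both ubiquitous chains of type IV collagen, which assemble together into the basement membrane sheet, were lower in the mutants. Col4a1 was at 201, 532 and 268 CPM in the controls and 139, 128 and 138 CPM in the mutants. The 3 mutants were close together and all below the lowest control, a 2.47-fold lower level (log2 change -1.30 ± 0.37 SE, adjusted p = 0.0825). Col4a2 was at 145, 377 and 196 CPM in the controls and 119, 95.5 and 122 CPM in the mutants, again without overlap. It was lower by 2.14-fold (log2 change -1.10 ± 0.36 SE, adjusted p = 0.131). Leaving out any library kept the Col4a1 call, and leaving out mutant 2 ended that of Col4a2. With the length and GC correction the changes were -0.47 for Col4a1 and -0.12 for Col4a2, and neither was called.

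The other basement membrane members were lower in level and none was called. Col18a1, the core of a basement membrane heparan sulfate proteoglycan, was at 52.8, 114 and 82.3 CPM in the controls and 30.1, 65.7 and 48.1 CPM in the mutants, where mutant 2 lay above control 1 (log2 change -0.79 ± 0.37 SE, adjusted p = 0.292). Its change turned to 0.10 after the length and GC correction, and it was called lower with total counts, in DESeq2, without control 1 and without mutant 2. Col15a1, a related proteoglycan core, was at 9.38, 22.8 and 8.70 CPM in the controls and 0, 6.92 and 6.35 CPM in the mutants. Although every mutant was below every control, with mutant 1 at 0, the log2 change of -1.60 had an SE of 1.16. Col7a1, the anchoring fibril chain, Col4a5 and Col4a6 had log2 changes of -0.96 ± 0.46, -0.92 ± 0.58 and -1.44 ± 1.25 (SE), with overlapping groups. Without control 2 the changes of Col4a5 and Col4a6 were -0.27 and -0.71, and without mutant 3 that of Col4a6 was -3.26. The 5 endothelial markers summed to 155, 263 and 165 CPM in the controls and to 156, 124 and 122 CPM in the mutants, and their part in the type IV values was not tested.

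Among the FACIT chains, type IX collagen gave both calls. Its 3 chains form a single molecule that decorates type II fibrils in cartilage. Col9a2 was at 272, 359 and 148 CPM in the controls and 136, 104 and 108 CPM in the mutants, without overlap, and was lower by 2.24-fold (log2 change -1.16 ± 0.34 SE, adjusted p = 0.0920), a call that held when any library was left out. Col9a3 was at 87.2, 103 and 120 CPM in the controls and 37.8, 84.2 and 63.0 CPM in the mutants. Every mutant was below every control, although mutant 2 came close to control 1. The gene was lower by 1.67-fold (log2 change -0.74 ± 0.31 SE, adjusted p = 0.237), and the call ended when any of 5 of the 6 libraries was left out. Col9a1 was low, at 13.5, 10.2 and 6.50 CPM in the controls and 0.218, 4.18 and 4.03 CPM in the mutants, and was not called (log2 change -1.81 ± 1.00 SE). It was called lower in DESeq2, and also without mutant 1, at -1.31. The 4 measured chondrocyte markers summed to 41.3 to 57.4 CPM in the controls and to 62.6 to 83.2 CPM in the mutants, most of it Hapln1, at 33.4 to 40.0 CPM and 52.2 to 58.5 CPM. Acan stayed under 11 CPM in every library, Cnmd was at 0, 25.2 and 7.26 CPM in the mutants, and Matn3 was at 0 counts in every mutant. The part of cartilage cells in the type IX values was not tested. The fibril surface chains Col12a1, Col14a1, Col16a1 and Col22a1 had log2 changes of -0.58 ± 0.42, -1.25 ± 1.06, -0.69 ± 0.35 and -0.68 ± 0.44 (SE), and Col20a1, at under 5 CPM in every library, one of -0.24 ± 1.73. None of these 5 was called and their groups overlapped. Without control 2 the change of Col12a1 turned to 0.05 and that of Col20a1 to 0.15, that of Col16a1 was -0.31 and turned to 0.26 after the length and GC correction, and that of Col14a1 was -2.03 without mutant 3.

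Type VI collagen, whose Col6a1, Col6a2 and Col6a3 chains form the beaded filaments around connective tissue cells, had the lowest p of all members. Col6a1 was at 352, 636 and 298 CPM in the controls and 167, 174 and 218 CPM in the mutants, lower by 2.30-fold without overlap (log2 change -1.20 ± 0.34 SE, adjusted p = 0.0778). Col6a2 was at 423, 709 and 345 CPM in the controls and 304, 194 and 235 CPM in the mutants, lower by 2.02-fold, also without overlap (log2 change -1.01 ± 0.34 SE, adjusted p = 0.135). Col6a3 did not follow at the same size, with 108, 169 and 101 CPM in the controls and 129, 76.1 and 74.0 CPM in the mutants. Mutant 1 lay above controls 1 and 3 and the log2 change of -0.44 ± 0.32 (SE) was not called. The call for Col6a1 held when any library was left out and that for Col6a2 ended without mutant 2 or without mutant 3, while the length and GC correction gave changes of -0.52, -0.30 and 0.12 for Col6a1, Col6a2 and Col6a3 with none called. The alternative chains Col6a4 and Col6a5 stayed under 10 CPM in all 6 libraries and were not called.

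Of the network chains, Col8a2, a short chain found in vessel walls and beneath endothelia, was at 73.7, 37.6 and 55.9 CPM in the controls and 27.3, 31.3 and 26.9 CPM in the mutants. Unlike the other called members apart from Col9a3, it was not highest in control 2, which here was the lowest control. It was lower by 1.96-fold (log2 change -0.97 ± 0.31 SE, adjusted p = 0.114), and without control 2 the log2 change was -1.19, while the call ended without control 1. Its partner Col8a1 was at 30.1, 29.1 and 18.7 CPM in the controls and 8.08, 10.8 and 23.3 CPM in the mutants, with mutant 3 above control 3, and was not called. The 4 transmembrane chains, among them Col17a1, the hemidesmosome collagen of epithelia, all had log2 changes below 0, from -2.08 to -0.76, and none was called, although Col23a1 was called lower with TMM scaling, with total counts and in DESeq2. Col17a1 was at 84.8, 231 and 222 CPM in the controls and 44.3, 88.8 and 162 CPM in the mutants (log2 change -0.86 ± 0.52 SE). Col26a1 and Col28a1 both had changes of -0.25, and neither was called. Col26a1 turned to 0.08 without mutant 3. Col28a1 was at 0 in mutants 2 and 3, turned to 0.34 without mutant 2 and to 0.33 without mutant 3, and was called lower without mutant 1.

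The 5 members that were too low to test were Col4a3, Col4a4, Col6a6, Col10a1 and Col19a1. Col10a1, the collagen of hypertrophic cartilage, was at 0.553, 0.825 and 0.202 CPM in the controls, Col4a4 at 0.350, 1.04 and 0.954 CPM and Col6a6 at 0.670, 0.632 and 0.347 CPM. All 3 had 0 counts in every mutant, which at the depth of the mutant libraries allows levels of up to 0.655, 0.256 and 0.302 CPM in mutants 1, 2 and 3 (3 counts, counting error only), and no fold is given. Col4a3 and Col19a1 were under 0.4 CPM in every control and at 0 in mutants 1 and 3. Among the 39 tested members, 7 were at 0 in mutant 1, the shallowest library, 1 in mutant 2 and 3 in mutant 3, against none in any control, and over all genes tested the share at 0 was 19.9%, 7.75% and 9.89% in mutants 1, 2 and 3 and under 1% in each control.

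Summed over all 44 members, collagens took 3.00%, 8.39% and 3.65% of the counts in the controls and 2.53%, 2.26% and 2.63% in the mutants. Every mutant was below every control, but controls 1 and 3 were far nearer to the mutants than to control 2, and without control 2 the log2 ratio of the group means moved from -1.02 to -0.43. Fibrillar chains took 2.73%, 7.86% and 3.39% of counts in the controls against 2.38%, 2.11% and 2.48% in the mutants. Basement membrane chains took 0.0493%, 0.136% and 0.0641% against 0.0281%, 0.0325% and 0.0311%, and other chains 0.219%, 0.394% and 0.193% against 0.119%, 0.125% and 0.118%. In all 3 classes the groups did not overlap in these shares, and the mutants were closer to each other than the controls were. The shares are of total counts, without the upper-quartile scaling behind CPM. Col1a1, the largest part, took 1.97%, 5.96% and 2.61% in the controls and 1.84%, 1.63% and 1.94% in the mutants. It thus did not overlap as a share, although it overlapped in CPM. A lack of overlap in these shares therefore need not hold in CPM.

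**Figure D3:**
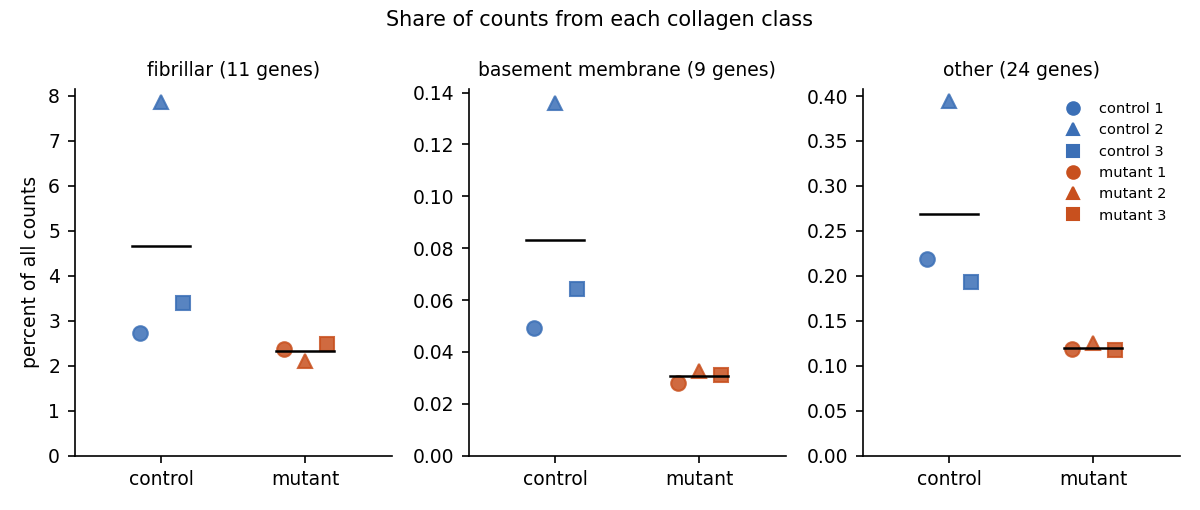
Percent of all counts, without upper-quartile scaling, taken by fibrillar (11 genes), basement membrane (9) and other (24) collagen genes in each library. Lines mark the group means, and each class has a separate axis from 0. Control 2 (blue triangle) is the highest library in every class, at 7.86%, 0.136% and 0.394%, and the 3 mutants lie below the controls in each.

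The collagen counts were also compared with each other inside each library. Fibrillar chains held 91.1%, 93.7% and 93.0% of all collagen counts in the controls and 94.2%, 93.1% and 94.3% in the mutants, with overlap. Basement membrane chains held 1.65%, 1.62% and 1.75% in the controls and 1.11%, 1.44% and 1.18% in the mutants, without overlap, and these shares do not depend on how the libraries were scaled. Col1a1 alone held 65.7%, 71.1% and 71.4% in the controls and 72.8%, 72.1% and 73.9% in the mutants, and Col1a2 held 13.9%, 12.7% and 13.3% against 9.37%, 10.8% and 9.57%. With 3 libraries a group, no two-sided exact permutation test of such a share can give a p below 0.1, and differences between the classes were not tested.

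Ratios of partner chains within each library, computed per kilobase of transcript, do not depend on scaling either. Per length, Col1a1 stood at 4.26, 5.07 and 4.83 times Col1a2 in the controls and at 7.01, 6.04 and 6.96 times in the mutants. The type I ratio was thus higher in every mutant than in any control, with means of 4.72 ± 0.417 and 6.67 ± 0.544 (SD). Col6a3 stood at 0.118, 0.110 and 0.135 of Col6a2 in the controls and 0.195, 0.181 and 0.145 in the mutants, also higher without overlap. Col4a1 stood at 1.34, 1.38 and 1.33 times Col4a2 in the controls and 1.14, 1.31 and 1.11 times in the mutants, lower without overlap. The Col5a1 to Col5a2 ratio was likewise lower in every mutant, and the Col11a1 to Col11a2 ratio higher, but after the length and GC correction the difference in log2 change between the 2 chains turned from -0.33 to 0.06 and from 0.39 to -0.42. For the type I, type IV and Col6a3 to Col6a2 pairs it kept its sign, at 0.66, -0.35 and 0.43. The 4 other pairs overlapped. The exact two-sided permutation test gave p = 0.1, the smallest that 3 against 3 libraries allow, for each of the 5 pairs without overlap, and an adjusted p of 0.18 over the 9 pairs.

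The class medians depended on the libraries and the processing. Basement membrane chains had the lowest of the 3 medians under each of the 13 ways of processing, from -1.46 without control 1 to -0.36 after the length and GC correction. In some the gap was small. With the replicate block the median was -0.98 against -0.92 for other chains, and without control 2 it was -0.71 against -0.64. The 13 ways reuse the same libraries, and differences between the classes were not tested. The fibrillar median moved from -0.77 to -0.11 when control 2 was left out and to -0.04 after the length and GC correction. Scaling on total counts moved the median of all genes from -0.04 to -0.30, and relative to that median the members stood at -0.91 in place of -0.88. With total counts 17 members were called lower, against a background of 14.8%, and all 39 had a log2 change below 0.

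**Figure D4:**
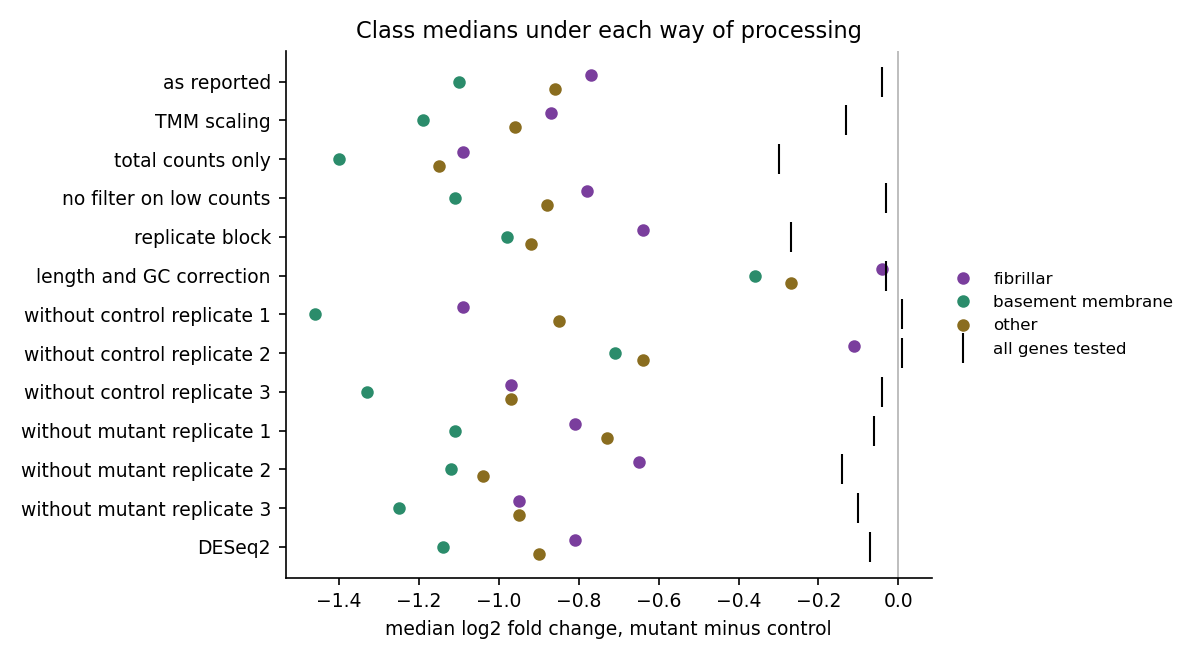
Median log2 fold change, mutant minus control, of the tested fibrillar, basement membrane and other collagen genes (coloured points) and of all genes tested (black ticks) as reported and under 12 alternatives. The fibrillar median is closest to that of all genes without control 2 (-0.11) and after the length and GC correction (-0.04).

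Genes that act on collagen were also called lower rather than higher. The list held 38 genes for the hydroxylation, folding, secretion, processing and cross-linking of collagen chains, all tested, of which 9 were called lower (23.7%, background 8.92%) and 0 higher. Their median log2 change was -0.52, against -0.04 for all genes, and -0.31 after the length and GC correction, where 2 were called lower (background 7.30%). The 9 included 2 of the 3 lysyl hydroxylases, Plod1 and Plod3. Plod1 was at 88.4, 119 and 75.2 CPM in the controls and 43.9, 49.7 and 55.4 CPM in the mutants, a log2 change of -0.92 ± 0.25 (SE, adjusted p = 0.0718). Plod3 was at 60.8, 80.2 and 70.4 CPM in the controls and 39.7, 22.6 and 43.7 CPM in the mutants, a change of -1.0 ± 0.30 (SE, adjusted p = 0.102). Both were lower in every mutant than in any control.

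Fkbp10, a chaperone of the endoplasmic reticulum that folds type I chains, was at 273, 330 and 242 CPM in the controls and 170, 161 and 144 CPM in the mutants (log2 change -0.83 ± 0.23 SE, adjusted p = 0.0791). Sec24d, a coat protein for the export of procollagen, was at 61.4, 72.4 and 66.3 CPM in the controls and 40.4, 31.8 and 45.2 CPM in the mutants (log2 change -0.77 ± 0.24 SE, adjusted p = 0.110). The groups did not overlap in either gene. After the length and GC correction the changes were -0.37 for Plod1 and Plod3 and -0.39 for Fkbp10 and Sec24d, and none of the 4 was called. Control 2 stood at 1.45, 1.22, 1.28 and 1.13 times the mean of controls 1 and 3 for Plod1, Plod3, Fkbp10 and Sec24d. The 5 other genes called lower were Pcolce, P4ha2, P3h3, Loxl2 and Loxl4, with log2 changes of -0.78, -0.74, -1.08, -1.06 and -1.16, and for Loxl4, Loxl2 and P3h3 control 2 stood at 2.28, 1.81 and 1.67 times the mean of the other controls. Serpinh1, the collagen-specific chaperone, Lox, the lysyl oxidase, and Sparc, a collagen-binding matrix protein, were named after their values were seen, and were not called (log2 changes -0.50 ± 0.34, -0.29 ± 0.30 and -0.58 ± 0.42 SE). Ppib, a prolyl isomerase that acts on collagen chains and was likewise named after its values were seen, was at 638, 339 and 587 CPM in the controls and 890, 751 and 857 CPM in the mutants, above every control (log2 change 0.68 ± 0.31 SE, adjusted p = 0.275), and was not called in edgeR. It was called higher in DESeq2, and its change turned to -0.15 after the length and GC correction.

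Of 10 collagen receptors, 9 were tested, 1 was called lower (11.1%, background 8.92%) and 0 were called higher, with a median log2 change of -0.27. Mrc2, the endocytic receptor that takes up collagen fragments, was at 411, 604 and 311 CPM in the controls and 278, 242 and 263 CPM in the mutants, without overlap (log2 change -0.76 ± 0.30 SE, adjusted p = 0.195). This call ended without control 2 and without any of the 3 mutants in turn, and the change turned to 0.06 after the length and GC correction. Itgb1, the common beta chain of the collagen-binding integrins, and the kinase receptors Ddr1 and Ddr2 had log2 changes of 0.20 ± 0.24, -0.27 ± 0.33 and 0.37 ± 0.30 (SE), none called.

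Several members that were called together are neighbours in the genome. Col4a1 and Col4a2 lie head to head on chromosome 8, with annotated starts that overlap by 22 bases in GENCODE M21, and Col6a1 and Col6a2 lie on the same strand of chromosome 10, 85.16 kb apart. Whether the reads were counted by strand is not given in the sources used here, and reads in the overlap of Col4a1 and Col4a2 could belong to either. The 250 bases before the RefSeq start (GRCm38.p6) of Col1a2, Col6a1 and Col6a2 are printed because the first is the type I chain that was called and the others are called neighbours, with matches to CCAAT and GGGCGG on either strand in capitals. The GENCODE M21 start of Col1a2, at 4504814, lies upstream of its printed window, which is thus inside the GENCODE gene. That of Col6a1, at 76726168, lies within its window.
Col1a2, chr6:4505368-4505617, plus strand: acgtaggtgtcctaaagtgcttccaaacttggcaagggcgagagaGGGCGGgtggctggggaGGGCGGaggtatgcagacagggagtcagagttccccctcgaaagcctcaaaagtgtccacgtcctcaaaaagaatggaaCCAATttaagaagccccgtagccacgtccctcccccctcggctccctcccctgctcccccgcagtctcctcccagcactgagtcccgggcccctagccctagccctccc
Col6a1, chr10:76726045-76726294, minus strand: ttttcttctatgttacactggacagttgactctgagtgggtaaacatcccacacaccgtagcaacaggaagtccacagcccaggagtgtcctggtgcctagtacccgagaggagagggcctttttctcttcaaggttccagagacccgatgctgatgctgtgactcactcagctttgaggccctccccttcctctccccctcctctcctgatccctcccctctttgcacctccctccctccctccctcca
Col6a2, chr10:76623631-76623880, minus strand: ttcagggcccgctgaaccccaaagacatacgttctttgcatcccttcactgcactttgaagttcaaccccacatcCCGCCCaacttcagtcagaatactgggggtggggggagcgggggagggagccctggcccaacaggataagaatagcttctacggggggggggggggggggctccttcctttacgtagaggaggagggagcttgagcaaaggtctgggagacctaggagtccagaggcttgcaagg
Of the 44 members, 35 had a promoter window in the RefSeq table. CCAAT or its complement was found in 37.1% of these 35 members and in 37.4% of all 32817 windows, TATAAA in 14.3% and 13.6%, and GGGCGG in 62.9% and 35.6%. The shares of members count genes, whereas the shares of all windows count windows. Because these units differ, the shares cannot show whether a motif is more frequent in collagen genes, and no difference was tested. Matches to different motifs may share bases, and a match describes the letters of the window and nothing else.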

How the data were processed

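Bulk mRNA of the proximal incisor was sequenced as single reads on a NextSeq500. The authors trimmed and aligned the reads in Partek Flow to mm10 (processing notes name TopHat2 2.0.8) and deposited estimated counts per gene, which are not normalized and were rounded here. A second deposited table, not used, holds the authors' own comparison (p-values, ratios and group means). Which libraries were control and which mutant came from the sample titles. All genes passing filterByExpr (minimum count 10, minimum total 15) were tested with edgeR 4.0.16 in R 4.3.3, with upper-quartile scaling, a quasi-likelihood test of genotype alone, two-sided, and Benjamini-Hochberg adjustment. SEs were the log2 change divided by the square root of F. On simulated data the test recovered 99% of 200 genes changed 3-fold among 15826, with 12 false calls. The simulation gave every gene the same spread between libraries, with no outlying library and no length or GC trend. It therefore does not give the power in these data. Alternatives were TMM or total-count scaling, no filter, DESeq2 1.42.0, the replicate number as a block, each library left out in turn, and a length and GC correction (splines with 4 degrees of freedom per library). Lengths are of the longest coding GENCODE M21 transcript. Symbols matched GENCODE directly for 18637 genes and by synonym for 193. Genes were named by rule: all called members, the 3 most abundant per class by length, partner chains, and up to 4 genes per direction from each list. The members and lists were chosen with earlier results of these data known.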

Additional observations from a re-analysis of the deposited data

Results flagged for a closer look

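A pair of members outside the genes tested had a value in a mutant library above every control. Col4a3, a type IV chain, was at 2.65 CPM in mutant 2, which rests on 31 counts, against 0.0583, 0.247 and 0.202 CPM in the controls and 0 in mutants 1 and 3. Col19a1, a FACIT chain, was at 2.73 CPM in mutant 2, from 32 counts, against 0.117, 0.330 and 0.0867 CPM in the controls and 0 in mutants 1 and 3. Both values lie above the 0.256 CPM that 3 counts would give in mutant 2, each comes from that library alone, and neither difference was tested.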

How the results depend on the processing

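The number of collagen genes called lower was 9 as reported, 17 with total counts (background 14.8%) and 0 after the length and GC correction (background 7.30%). It was within 1.5 times of 9 under the other alternatives, running from 7 to 13 when each library was left out (background 4.97% to 16.5%). The genes counted were not the same. Only Col4a1, Col6a1 and Col9a2 of the 9 kept the call whichever library was left out. Col4a4, Col6a6 and Col10a1, at 0 in every mutant, were not tested as reported. They were counted with no filter and without any 1 of the mutants. Col13a1 and Col20a1, called without mutant 2, and Col28a1, called without mutant 1, were at 0 in the remaining mutants. The number called higher was 1 after the length and GC correction (background 7.03%). Several members not called as reported were called lower under alternatives. Among them Col6a3 was called without mutant 1, Col22a1 without control 1, and Col7a1 with total counts and without control 1. Col16a1 was called with total counts, without control 3 and without mutant 3. Col17a1 was called with the replicate block, without control 1 and without mutant 3. The number with an adjusted p under 0.05 was 1 with total counts and 7 in DESeq2 (background 10.2% in DESeq2). The length and GC correction moved the medians to -0.26 for all members, -0.04 for fibrillar, -0.36 for basement membrane and -0.27 for other chains. Without each library in turn the medians ran from -1.05 to -0.59 for all members, -1.09 to -0.11 for fibrillar, -1.46 to -0.71 for basement membrane and -1.04 to -0.64 for other chains, and the log2 ratio of collagen shares from -1.28 to -0.43. In the biosynthesis list 15 genes were called lower with total counts (background 14.8%) and 2 after the length and GC correction (background 7.30%). In that list 1 was called higher with the replicate block and in DESeq2, and 0 to 1 without a library. The share of all genes called higher under these alternatives is not given here. In the receptor list 2 were called lower with the block (background 7.84%) and in DESeq2 (background 9.45%). None was called lower after the length and GC correction (background 7.30%), and 0 to 1 without a library (background 4.97% to 16.5%). The length and GC correction turned 9 tested members above 0, Col1a1 to 0.26, Col3a1 to 0.22, Col18a1 to 0.10, Col6a3 to 0.12, Col11a2 to 0.38, Col16a1 to 0.26, Col20a1 to 0.36, Col26a1 to 0.38 and Col28a1 to 0.13, and it turned the receptor Mrc2 to 0.06. Leaving out control 2 turned 7, Col2a1 to 0.59, Col12a1 to 0.05, Col20a1 to 0.15, Col28a1 to 0.01, Col3a1 to 0.04, Col11a1 to 0.24 and Col11a2 to 0.07, the last 3 from lowest values of -0.63, -0.65 and -1.09 without another library. The cause of these changes was not tested.

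In the labels, controls and mutants share replicate numbers only. The deviations of same-numbered libraries correlated at 0.0472, 0.00937 and 0.0548. Each library correlated best with its own number, but for control 2 only by 0.00937 with mutant 2 against 0.00808 with mutant 3. Correlations this small do not show a pairing. The study speaks of 3 pairs of samples but does not say which libraries would be matched, and the test reported here used genotype alone. With the replicate block 13 collagen genes were called lower (against 7.84% of all genes), 0 higher and 0 at an adjusted p under 0.05, and the median was -0.92 in the members and -0.27 in all genes. The members called lower with the block and not without it were Col2a1, Col17a1, Col18a1 and Col23a1. Depth limits the low chains, since 3 counts correspond to 0.655 CPM in mutant 1.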
